A study of Mus musculus with 7 samples.

Results

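The genes described are the Mef2 transcription factors and a group of genes known as early targets of MyoD, followed through mouse liver in which Myod1, the gene of MyoD, had been activated. They were chosen by name: Hes6, Mef2a, Mef2c, Mef2d, Cdh15, Chrna1, Chrnb1, Chrng, Mylpf and Myh3. Of these 10 genes, 9 had a row among the 34110 gene symbols of the tables, 1 row each. Cdh15 had no row under that symbol and was not analysed here. The samples were C57BL/6 livers: 1 library labelled Myod1_active, 2 labelled Myod1_control, 2 labelled SunTag and 2 labelled WT. The Myod1_active, Myod1_control and SunTag livers came from SunTag-dCas9 mice, and the WT livers from wild-type mice. SunTag-dCas9 mice carry a dCas9, which binds where its guide RNA directs it without cutting, fused to a peptide array that recruits effector proteins. Sex, age, the way in which Myod1 was activated, what the controls received and whether each library was 1 animal are not stated in the labels, and nothing in the labels gives the Myod1_active group a replicate.

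MyoD is a basic helix-loop-helix (bHLH) factor that binds E-boxes, short sites of the form CANNTG, and starts the skeletal muscle program when it is expressed in many other cell types. Mef2 proteins are MADS box factors that bind an A/T-rich site and act together with MyoD and myogenin on muscle promoters. They are also present outside muscle, where class IIa histone deacetylases hold them in check. Hes6 is a bHLH protein that antagonises Hes1 and favours differentiation in muscle and neural precursors. Chrna1, Chrnb1 and Chrng encode the alpha, beta and gamma subunits of the muscle acetylcholine receptor. Mylpf and Myh3 encode the fast muscle regulatory light chain and the embryonic heavy chain of myosin.

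Expression was measured as FPKM, fragments scaled to transcript length and to the mapped total, so that levels can be set side by side between genes. No read totals are known, and the width of the deposited bounds gave relative depths of 0.946 to 1.08 times the geometric mean of the libraries. Libraries differed beyond their labels. Xist ranged over 0.00420 to 0.324 FPKM in the 3 libraries of the Myod1 experiment and over 56.9 to 82.2 FPKM in the other 4. The Y-linked Ddx3y ranged over 6.97 to 9.23 FPKM in the same 3 and over 0 to 0.0765 in the other 4, so sex, experiment and group cannot be told apart when Myod1_control is set against SunTag. Liver identity was plain in each library, with Alb, which encodes albumin, at 28499.7 to 54092.5 FPKM. Myod1 itself was at 3.52 FPKM in the Myod1_active library and listed at 0 in the other 6, so it reached the level needed for testing only through that library.

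The promoters of the genes are shown first, because MyoD and Mef2 act through short sites in them. RefSeq windows of 300 bases, 250 before and 50 from each annotated start (GRCm38.p6), were found for all 9 genes, 12 windows in all. A script searched both strands for the E-box CANNTG, for its forms CAGCTG and CACCTG, which are contained in it, and for the MEF2 consensus. CAGCTG, the form with a GC centre, was present in 5 of the 12 windows, from Hes6, Chrna1, Chrng and Mylpf, where 16.3% of all 32851 windows hold it. CACCTG was present in 3 windows, against 20.2% of all windows, any E-box in 9, against 72.3%, and the MEF2 consensus in 1, that of Mef2a, against 3.19%. A match is a description of the letters and not a bound site. The windows below are those of the 4 genes with CAGCTG and that of Mef2a. They set Hes6, Mylpf and Mef2a, whose Myod1_active value lay above both Myod1_control values without passing the test described below, beside Chrna1 and Chrng, which were near 0 in every library. They lie at chr1:91413989-91414288 (Hes6 start 1, minus strand), chr1:91413173-91413472 (Hes6 start 2, minus), chr7:127211358-127211657 (Mylpf, plus), chr2:73580289-73580588 (Chrna1, minus), chr1:87205561-87205860 (Chrng, plus) and chr7:67372809-67373108 (Mef2a, minus). Capitals mark CAGCTG and, in Mef2a, the MEF2 consensus.
Hes6 start 1: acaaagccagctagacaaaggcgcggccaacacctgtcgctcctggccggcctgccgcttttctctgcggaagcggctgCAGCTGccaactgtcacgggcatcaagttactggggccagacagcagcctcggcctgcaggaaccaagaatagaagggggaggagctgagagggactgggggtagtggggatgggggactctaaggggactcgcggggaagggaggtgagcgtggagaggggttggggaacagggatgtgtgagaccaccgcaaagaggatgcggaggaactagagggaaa
Hes6 start 2: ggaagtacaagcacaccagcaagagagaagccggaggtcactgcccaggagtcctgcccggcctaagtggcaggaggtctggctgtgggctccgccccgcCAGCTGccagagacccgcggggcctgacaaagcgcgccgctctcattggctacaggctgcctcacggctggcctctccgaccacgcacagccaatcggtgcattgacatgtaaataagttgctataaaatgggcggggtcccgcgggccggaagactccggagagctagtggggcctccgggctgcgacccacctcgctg
Mylpf: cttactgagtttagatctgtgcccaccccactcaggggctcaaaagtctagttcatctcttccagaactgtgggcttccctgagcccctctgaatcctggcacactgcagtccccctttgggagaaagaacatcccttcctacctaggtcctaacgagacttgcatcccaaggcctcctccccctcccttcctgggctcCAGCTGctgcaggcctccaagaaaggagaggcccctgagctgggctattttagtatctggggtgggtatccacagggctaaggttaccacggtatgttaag
Chrna1: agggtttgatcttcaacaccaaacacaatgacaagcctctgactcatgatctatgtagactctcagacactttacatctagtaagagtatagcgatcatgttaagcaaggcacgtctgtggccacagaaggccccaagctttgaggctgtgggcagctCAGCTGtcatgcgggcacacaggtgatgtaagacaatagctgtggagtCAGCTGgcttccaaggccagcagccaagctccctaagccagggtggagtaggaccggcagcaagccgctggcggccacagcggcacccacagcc
Chrng: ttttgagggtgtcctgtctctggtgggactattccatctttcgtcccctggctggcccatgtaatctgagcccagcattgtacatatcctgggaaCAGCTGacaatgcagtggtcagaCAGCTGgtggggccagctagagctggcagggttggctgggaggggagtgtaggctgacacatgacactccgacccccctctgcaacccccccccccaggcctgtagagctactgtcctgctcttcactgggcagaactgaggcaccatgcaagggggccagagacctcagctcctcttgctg
Mef2a: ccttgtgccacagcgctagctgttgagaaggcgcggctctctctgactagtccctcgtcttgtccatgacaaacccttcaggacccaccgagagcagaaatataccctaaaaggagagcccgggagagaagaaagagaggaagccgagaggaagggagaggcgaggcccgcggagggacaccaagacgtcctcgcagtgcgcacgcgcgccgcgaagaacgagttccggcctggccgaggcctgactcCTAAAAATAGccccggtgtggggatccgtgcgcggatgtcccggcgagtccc

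The CAGCTG of Hes6 began 171 bases before start 1 and 150 bases before start 2. In Mylpf it began 51 bases before the start. Chrna1 held it at 92 and 44 bases and Chrng at 155 and 132 bases before the start, so the windows of these receptor genes held 2 copies each where those of Hes6 and Mylpf held 1. Mef2d and the second start of Mef2c held none of the motifs searched.

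**Figure D1:**
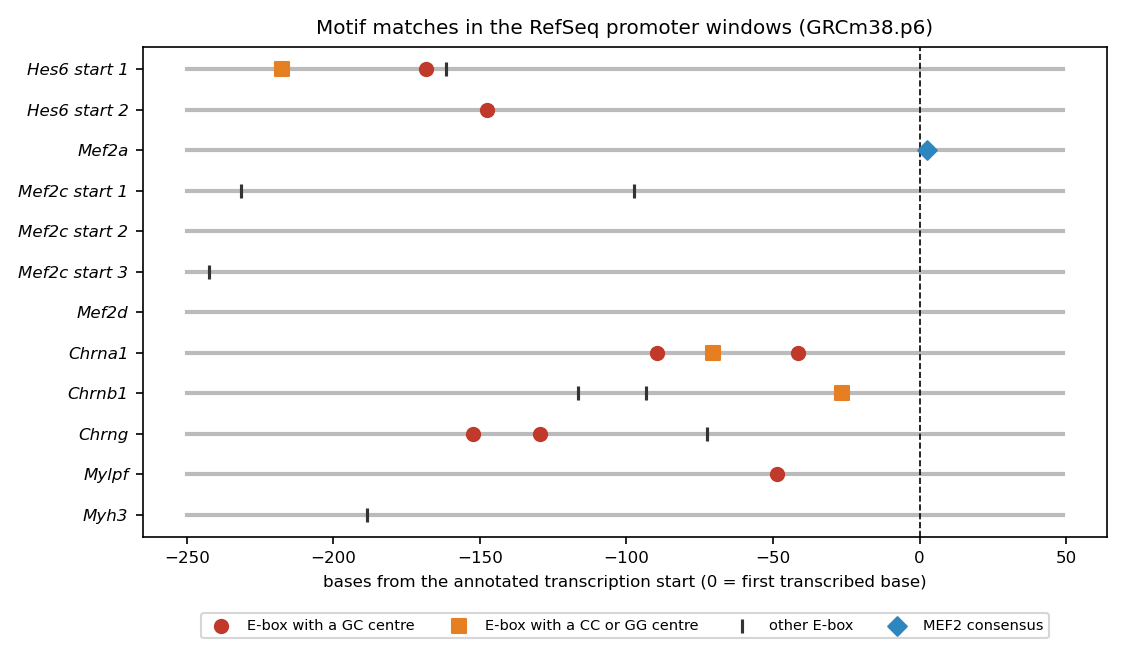
Motif matches in the promoter windows of the 9 measured genes, by distance in bases from the annotated start (horizontal axis). Each grey line is 1 of 12 windows of 300 bases. E-boxes with a GC centre (circles) lie in the windows of Hes6, Chrna1, Chrng and Mylpf, and the MEF2 consensus (diamond) in that of Mef2a.

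By level, the genes fell into those that liver expresses and those close to 0. In FPKM, averaged over the 7 libraries, Hes6 was highest at 75.9, followed by Mef2d at 9.33, Mef2a at 4.34 and Mylpf at 2.88. Below these came Mef2c at 0.382, Chrnb1 at 0.271 and Chrna1 at 0.174, then Chrng at 0.00285 and Myh3 at 0.00198. Hes6 ranked at position 1313 among 33887 genes. Mef2d lay between 6.18 and 12.5 FPKM and Mef2a between 3.54 and 7.10, so these neighbours in the order overlapped across libraries, although Mef2d was higher than Mef2a in each of the 7. Mylpf, from 0.144 to 5.77, overlapped with Mef2a, and Mef2c, Chrnb1 and Chrna1 overlapped with one another. Testing was limited to genes with an FPKM of 1 or more in 1 or more libraries. Hes6, Mef2a, Mef2d and Mylpf did, and Mef2c, Chrna1, Chrnb1, Chrng and Myh3 did not.

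**Figure D2:**
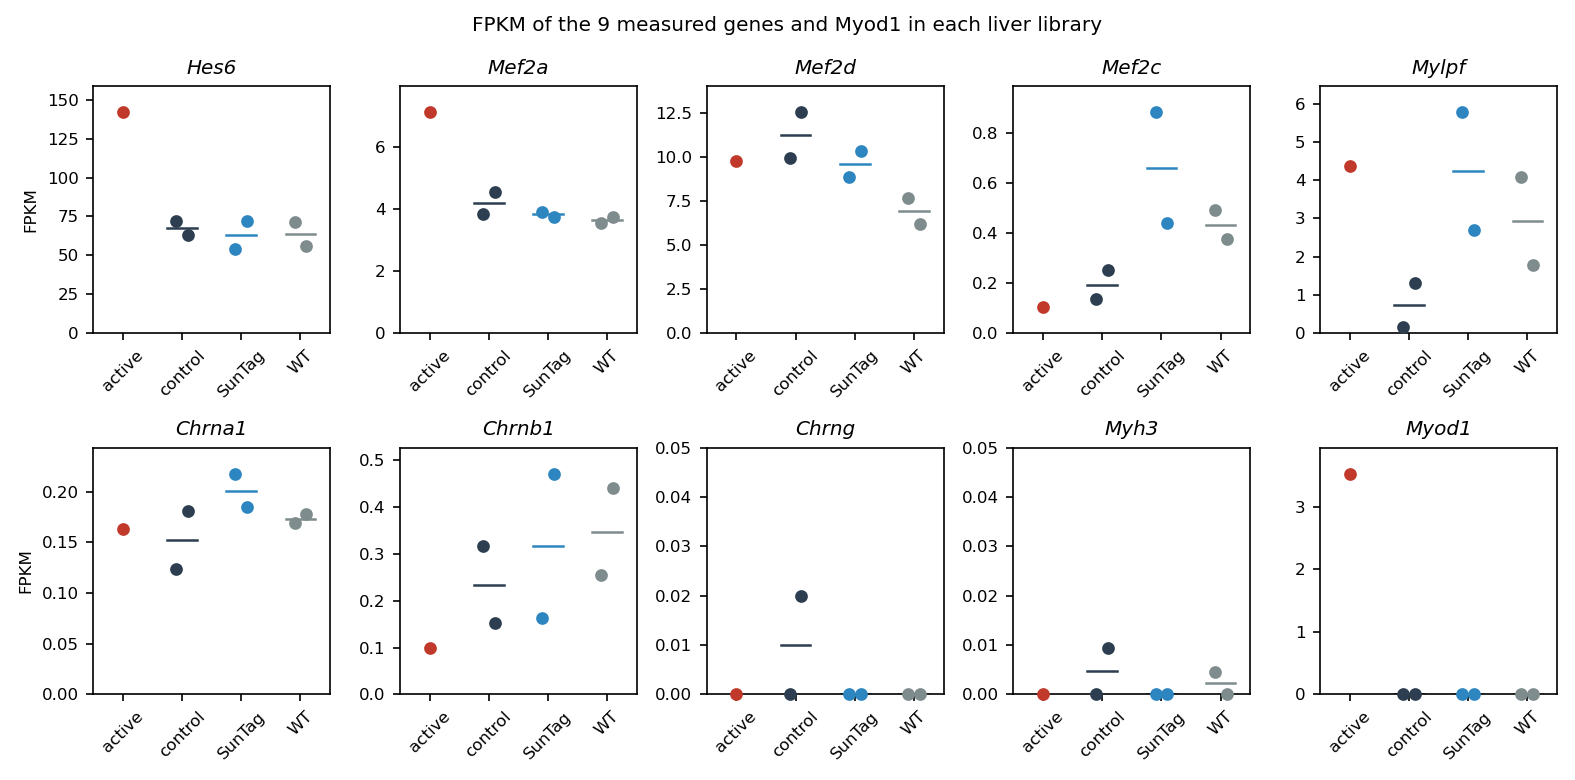
FPKM (vertical axes, each from 0) of the 9 measured genes and Myod1 in every library, with 1 Myod1_active library and 2 each of Myod1_control, SunTag and WT. Points are libraries and bars are group means. Hes6 at 142 and Mef2a at 7.10 FPKM in the Myod1_active library lie above all other libraries, while Chrng and Myh3 lie at or below 0.0199.

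The comparison of Myod1_active with Myod1_control asked whether these genes followed the activation of Myod1. Hes6 was at 2.098 times and Mef2a at 1.70 times the control mean, and both were higher than in any other library, as were 31.4% of all genes. Mylpf was higher than in both controls but within the range of the SunTag and WT livers. Mef2d, Mef2c and Chrnb1 were below both controls, Chrna1 lay between them, and Chrng and Myh3 were listed at 0. With 1 library against 2, none of the 4 tested genes passed limma's test over all 15744 genes at an adjusted p of 0.05, a rule that called 0.254% of all genes (40 genes, 0.216% higher and 0.0381% lower). Hes6, Mef2a and Mylpf had an unadjusted p under 0.05 by limma, as did 19.5% of all genes. With median-ratio scaling this count of 3 became 1, where 2027 of the 15744 genes had such a p. With quantile normalization it was also 1, where 1951 genes did. Hes6, Mef2a and Mylpf lay above both controls, as did 61.4% of all genes, and Mef2d lay below both, as did 16.6%. The median gene was 0.25 higher on the log2(FPKM + 1) scale in the Myod1_active library, so differences are given below relative to the median gene as well.

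Hes6 (ENSMUSG00000067071, chromosome 1 from 93308060 to 93310615 on mm9) was at 142 FPKM in the Myod1_active library, where its deposited bounds were 133 and 151. It was at 72.3 and 63.0 in the Myod1_control libraries, with bounds of 66.4 to 78.4 and 58.0 to 68.0, at 54.3 and 72.2 in SunTag and at 71.2 and 56.2 in WT. The 6 libraries without activation thus lay between 54.3 and 72.3 in every group, and the Myod1_active library stood apart from them at 1.96 times the highest. A ratio that large to the highest of the other 6 was reached by 2.27% of the tested genes. Genes at 0 in all of the other 6 have no such ratio and were counted as not reaching it. The log2(FPKM + 1) difference between Myod1_active and Myod1_control was 1.06 (limma SE 0.258, adjusted p = 0.171), and 0.81 relative to the median gene, with a 95% interval of 0.14 to 1.47. Of all genes, 4.67% had a higher difference relative to the median gene. Per2, a clock gene that lies 1945 bases from Hes6, was also highest in this library, at 3.38 FPKM against 1.09 and 1.82 in Myod1_control, 1.54 and 1.09 in SunTag and 1.503 and 1.21 in WT. Its part in the value of Hes6 was not tested.

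Mef2a (ENSMUSG00000030557, chromosome 7 from 74376049 to 74517744) was at 7.10 FPKM in the Myod1_active library, where its deposited bounds were 6.40 and 7.82. It was at 3.83 and 4.54 in Myod1_control, 3.89 and 3.75 in SunTag and 3.54 and 3.73 in WT. The other 6 libraries were close together, and the activated library was 1.56 times the highest of them. Counted in the same way as for Hes6, 5.41% of genes reached that ratio. The log2 difference was 0.65 (SE 0.159, limma adjusted p = 0.171), and 0.39 relative to the median gene with a 95% interval of -0.02 to 0.80.

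Mef2d (ENSMUSG00000001419, chromosome 3 from 87946294 to 87976008) was at 9.78 FPKM in Myod1_active, just below both Myod1_control libraries at 9.95 and 12.5. SunTag stood at 8.88 and 10.3 and WT at 7.66 and 6.18. The log2 difference from the controls was -0.18 (SE 0.220, limma adjusted p = 0.672), and -0.43 relative to the median gene. Mef2d overlaps 1700113A16Rik by 527 bases, which was at 2.11 FPKM in Myod1_active and at 3.79 and 2.60 in Myod1_control, so reads in that stretch are uncertain.

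Mef2c (ENSMUSG00000005583, chromosome 13 from 83643033 to 83806684) was the lowest of the Mef2 genes chosen here, which do not include all members of the family. It was at 0.104 FPKM in Myod1_active, 0.135 and 0.250 in Myod1_control, 0.881 and 0.439 in SunTag and 0.490 and 0.374 in WT. The Myod1_active library was thus the lowest of the 7, and all 3 libraries of the Myod1 experiment lay below the other 4. Outside muscle, Mef2c is known from endothelium, macrophages and B cells, and the summed markers of these cells were ordered the same way between the experiments. The 8 endothelial markers summed to 21.8 FPKM in Myod1_active, 32.4 and 34.5 in Myod1_control and 101 to 108 in SunTag and WT, and the 7 Kupffer cell and macrophage markers to 29.6, to 35.4 and 33.8, and to 176 to 283 FPKM in the same order. The 5 B cell markers summed to 0.252 in Myod1_active, 0.443 and 0.329 in Myod1_control and 3.57 to 8.23 FPKM in SunTag and WT. The order was not particular to these cells. Summed markers of hepatocytes, smooth muscle, stellate cells and heart muscle were also lower in all 3 libraries of the Myod1 experiment. Hepatocyte markers summed to 42345.5 to 46595.8 FPKM there and to 63140.6 to 75897.7 in the other 4. Not every marker followed its sum. The hepatocyte sum was mostly Alb, and Apoa1, Serpina1a and Hnf4a overlapped. Cps1 went the other way, at 932.79 to 1070.52 FPKM in the Myod1 experiment and 632.996 to 715.735 in the other libraries. Among stellate markers Col1a1 overlapped and was highest in Myod1_active, at 6.74 FPKM. Sums for skeletal muscle fibre and neuron overlapped. Of all genes, 41.6% were lower without overlap in Myod1_control than in SunTag. The part of any cell type in the level of Mef2c was not tested, and in bulk liver fewer cells of a type and less RNA per cell cannot be told apart.

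The muscle acetylcholine receptor genes were at or below 0.471 FPKM in every library. Chrna1 (ENSMUSG00000027107, chromosome 2 from 73401272 to 73418395) was at 0.163 FPKM in Myod1_active, inside the Myod1_control range of 0.123 to 0.181, and at 0.217 and 0.185 in SunTag and 0.169 and 0.178 in WT. Chrnb1 (ENSMUSG00000041189, chromosome 11 from 69597538 to 69609445) was at 0.0982 FPKM in Myod1_active, the lowest of the 7 libraries. It stood at 0.317 and 0.153 in Myod1_control, 0.164 and 0.471 in SunTag and 0.254 and 0.442 in WT. Chrng (ENSMUSG00000026253, chromosome 1 from 89102386 to 89108410), the subunit of the fetal receptor, was listed at 0 in 6 libraries, Myod1_active among them, and at 0.0199 FPKM in Myod1_control replicate 2. At these levels and with read totals unknown, a small change would not have been detectable.

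Of the sarcomere genes, Mylpf (ENSMUSG00000030672, chromosome 7 from 134355122 to 134357812) was at 4.36 FPKM in Myod1_active and at 0.144 and 1.31 in Myod1_control. It was at 5.77 and 2.70 in SunTag and at 4.09 and 1.77 in WT. The controls were therefore the 2 lowest of the 7 libraries, and the Myod1_active library lay among livers in which Myod1 was listed at 0. The log2 difference from the controls was 1.72 (SE 0.639, limma adjusted p = 0.246), and 1.47 relative to the median gene with a 95% interval of -0.18 to 3.12. Its deposited bounds in Myod1_active, 0.925 to 3.63 FPKM, did not contain the value itself. Fibre markers were low throughout. The 14 skeletal muscle fibre markers summed to 0.555 FPKM in Myod1_active, 0.515 and 0.229 in Myod1_control, 0.747 and 0.406 in SunTag and 2.09 and 3.62 in WT, and 7 of the 14 were below 0.1 in every library, 2 of them at 0. The 10 heart muscle markers summed to 0.0556 in Myod1_active, 0 and 0.810 in Myod1_control, 6.09 and 1.64 in SunTag and 44.9 and 47.5 FPKM in WT. Sept1, a septin gene 148 bases from Mylpf, was at 0.777 FPKM in Myod1_active, 0.699 and 0.283 in Myod1_control, 3.76 and 3.44 in SunTag and 4.61 and 3.31 in WT, and its part in the value of Mylpf was not tested. Myh3 (ENSMUSG00000020908, chromosome 11 from 66891802 to 66915793) was listed at 0 in 5 libraries, Myod1_active among them, and reached 0.00935 FPKM in Myod1_control replicate 2 and 0.00450 in WT replicate 1. Myh3 has close paralogs among the myosin heavy chains, so values this small are uncertain.

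**Figure D3:**
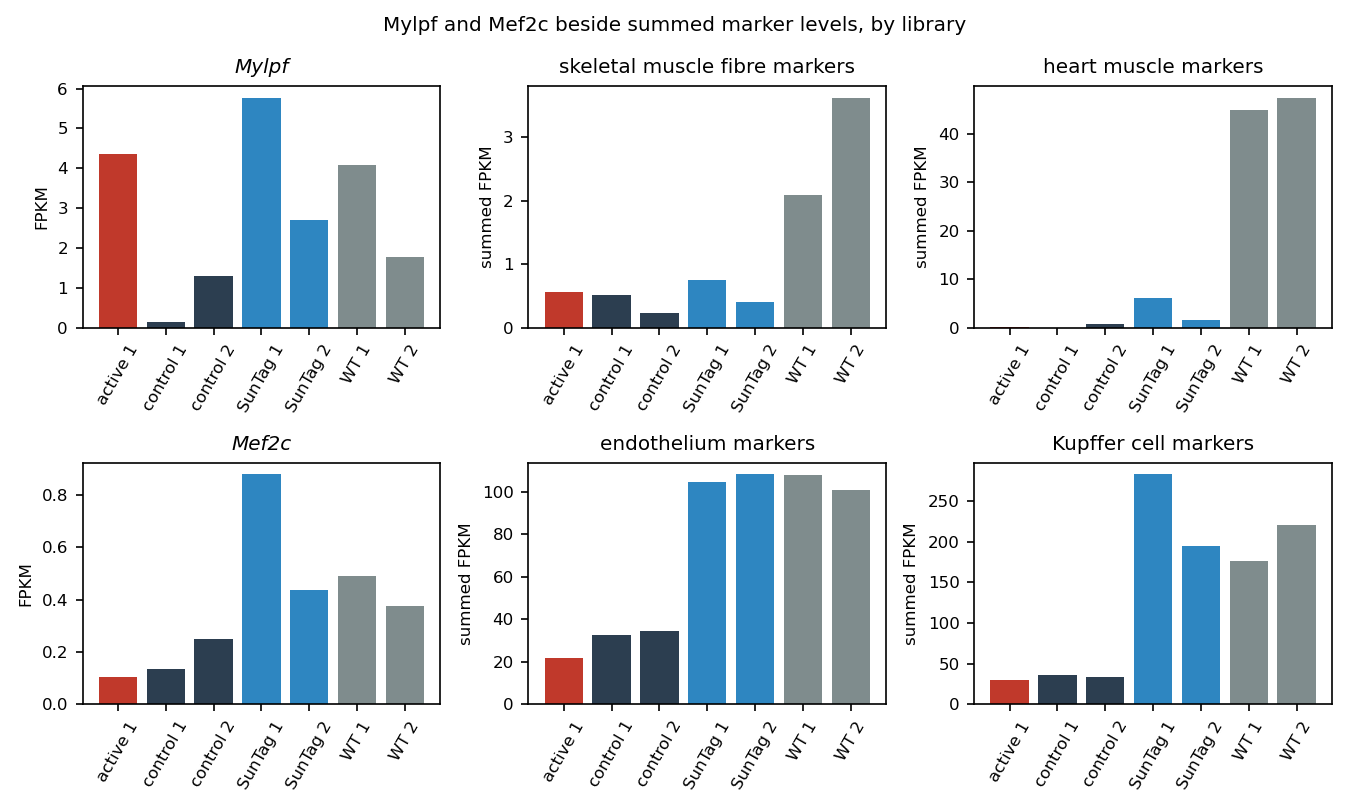
Bars give FPKM of Mylpf and Mef2c (left) and the summed FPKM of marker genes (middle and right) in each of the 7 libraries, with vertical axes from 0. Mylpf is low in the 2 Myod1_control libraries while the summed fibre markers are at most 3.62 throughout, and Mef2c is lowest in the 3 libraries of the Myod1 experiment, where endothelial and Kupffer cell markers are lowest too.

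Related genes were read from lists of partners of these genes and of the muscle program. Among 16 myogenic regulators, 2 were tested and 1 passed, Myod1 itself (limma adjusted p = 0.0327). Myod1 was the gene activated and reached 1 FPKM in the Myod1_active library alone, so it could come out only higher. Its call is therefore not set against the 0.216% of all genes called higher. That call was lost under 4 of 13 alternatives, with an adjusted p of 0.222 by limma with a replicate block and 0.173 with a pseudocount of 0.1. Srf, a MADS box factor related to Mef2, was at 4.25 FPKM in Myod1_active against 3.69 and 3.78 in Myod1_control (limma adjusted p = 0.569). Of 16 class IIa deacetylases and Mef2 cofactors, 14 were tested and 0 passed, with a median difference of -0.04 relative to the median gene. Hdac5, the deacetylase of this group with the highest FPKM, had 56.0 FPKM in Myod1_active against 57.0 and 82.8 in Myod1_control (limma adjusted p = 0.617). The kinase Mapk14, which phosphorylates Mef2, had 36.0 FPKM against 32.4 and 37.9 (limma adjusted p = 0.951).

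Among the counterparts of Hes6, of 18 Hes, Hey and Notch genes, 9 were tested, 0 passed and 8 lay below the median gene. Hes1, the repressor that Hes6 antagonises, was at 10.9 FPKM in Myod1_active against 16.2 and 14.7 in Myod1_control (limma adjusted p = 0.510). It was thus below both controls, as were 16.6% of all genes. Hes1 was at 6.76 and 3.20 FPKM in SunTag and 5.81 and 4.98 in WT, all below the Myod1_active value. Notch1, a receptor upstream of Hes1, had 10.8 FPKM in Myod1_active against 9.70 and 11.2 in Myod1_control (limma adjusted p = 0.989). Of 20 further receptor and neuromuscular junction genes 6 were tested and 0 passed. Agrn, which encodes agrin, the nerve signal that clusters receptors at the junction, had 20.5 FPKM in Myod1_active against 18.6 and 17.3 in Myod1_control (limma adjusted p = 0.791). Chrna4, a neuronal receptor subunit, had 14.7 FPKM against 8.25 and 22.4 (limma adjusted p = 0.958). Of 20 cadherin and myoblast fusion genes 10 were tested and 0 passed. Ctnnb1, the beta catenin that binds cadherin tails, had 118 FPKM in Myod1_active against 89.5 and 91.0 in Myod1_control (limma adjusted p = 0.333). Ctnna1, an alpha catenin that links cadherins to actin, had 37.3 FPKM against 25.2 and 25.4 (limma adjusted p = 0.189).

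Of 33 sarcomere genes 13 were tested, 0 passed, and 11 lay below the median gene. Their median relative difference of -0.25 is the size of the shift of the median gene itself, and Myl2, Myl3, Tnnt2 and Myh6, among others, were listed at 0 in all 3 libraries. Genes at 0 in all of these could neither pass nor lie above the median gene, so the counts support nothing about the list. Neb, which encodes the thin filament protein nebulin, was at 3.08 FPKM in Myod1_active against 2.99 and 3.17 in Myod1_control. Of 32 other genes reported to respond early to MyoD 20 were tested, and 1 passed, Cryab. The lists were chosen with earlier results of these data known, so this count is not set against the 0.216% of all genes called higher. Cryab, a small heat shock protein of muscle and stressed cells, was at 27.95 FPKM against 0.826 and 1.107 (limma adjusted p = 0.0182). SunTag livers had 6.14 and 4.003 FPKM of it and WT livers 4.34 and 5.46, and it is named here after its value was seen. Its limma adjusted p was 0.0885 without Myod1_control replicate 1, 0.0954 without replicate 2, and 0.111 without either WT library. The median difference of the 20 genes was -0.11 relative to the median gene. Gadd45g, a stress and growth arrest gene, had 74.5 FPKM in Myod1_active against 159 and 125 in Myod1_control (limma adjusted p = 0.601). Id3, an inhibitor of MyoD partners, had 75.2 FPKM in Myod1_active against 112 and 86.7 in Myod1_control (limma adjusted p = 0.376).

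The SunTag livers were compared with WT livers to see whether the knock-in alone moved these genes. None of the 4 tested genes passed limma's test, where the rule called 0.127% of all genes, and 0 of the 4 had an unadjusted p under 0.05, where 1.95% of all genes did. Hes6 differed by -0.03 relative to the median gene (SE 0.210, limma adjusted p = 1) and Mef2a by 0.04 (SE 0.130, adjusted p = 1). Their 95% intervals of -0.57 to 0.51 and -0.29 to 0.38 leave room for moderate changes. The Mef2a values of SunTag, 3.89 and 3.75 FPKM, lay just above those of WT, 3.54 and 3.73. Mef2d averaged 9.59 ± 1.01 FPKM in SunTag and 6.92 ± 1.05 in WT (SD, n = 2 each), and the groups did not overlap, as for 13.0% of all genes that were higher in SunTag. Its difference was 0.41 relative to the median gene, with a 95% interval of -0.06 to 0.87 and an adjusted p of 1 by limma. Mylpf averaged 4.24 ± 2.17 FPKM in SunTag and 2.93 ± 1.64 in WT (SD, n = 2 each), and its groups overlapped. The 13 tested sarcomere genes included 4 that were lower in SunTag and 0 higher, namely Myl2, Myl3, Tnnt2 and Myh6, which are heart muscle genes. All 4 reached 1 FPKM in the WT libraries alone, so they could come out only lower in SunTag, and their count is not set against the 0.0762% of all genes called lower. With a replicate block 3 of the 4 calls were lost, with limma adjusted p-values of 0.0633 for Tnnt2, 0.0970 for Myl3 and 0.125 for Myh6. Myl3 also missed the threshold without either SunTag library or either Myod1_control library, and with the 2 groups fitted alone (limma adjusted p = 0.0746). Myh6 also missed it with a pseudocount of 0.1 (limma adjusted p = 0.0932). These genes are themselves among the heart markers summed above, and the part of heart tissue in their values was not tested. Myl2, a ventricular myosin light chain, was listed at 0 in both SunTag libraries and was at 15.0 and 14.6 FPKM in WT.

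The Myod1_control livers, set against the SunTag livers, show how far these genes differed between livers with no activation. Of all genes 24.3% passed, 7.30% higher and 17.0% lower, and 0 of the 4 tested genes did. At an unadjusted p under 0.05 by limma 1 of the 4 was found, Mylpf, against 41.7% of all genes. The 1149 higher and 2683 lower calls became 1735 and 1846 with median-ratio scaling, and 1757 and 1764 with quantile normalization. Hes6 averaged 67.7 ± 6.60 FPKM in Myod1_control and 63.2 ± 12.6 in SunTag, and Mef2a 4.18 ± 0.502 and 3.82 ± 0.101 in the same order (SD, n = 2 each), with relative differences of 0.24 for each gene. Mef2d averaged 11.2 ± 1.82 FPKM in Myod1_control and 9.59 ± 1.01 in SunTag (SD, n = 2 each), a relative difference of 0.34 (limma adjusted p = 0.431). All 3 genes overlapped between the groups. Mylpf averaged 0.726 ± 0.823 FPKM in Myod1_control and 4.24 ± 2.17 in SunTag (SD, n = 2 each) and did not overlap, as for 41.6% of all genes that were lower. Its relative difference was -1.49 (SE 0.522, limma adjusted p = 0.0798), and it passed once genes spanning less than 300 bp were left out of the test (adjusted p = 0.0351). Mef2c, tested only with no filter on low values, had a relative difference of -0.44 (SE 0.150, adjusted p = 0.123). Between these groups 7 of 8 endothelial, 6 of 7 Kupffer cell and macrophage and both tested B cell markers were lower, as were all 4 tested smooth muscle markers. Of these Emcn, Timd4, Cd79a, Cd79b, Acta2 and Des were below 1 FPKM in both Myod1_control libraries, so they could not have been tested from that group alone. The part of these cell types in the values of Mylpf and Mef2c was not tested. Of the 20 tested genes reported to respond early to MyoD 6 were lower in Myod1_control, Unc45b, Igfbp5, Mapk12, Tnnt1, Des and Cryab, and 2 were higher, Id3 and Dag1. Cryab, higher in Myod1_active than in Myod1_control, thus stood lower in those controls than in SunTag (limma adjusted p = 0.0199). Tnnt1 was also the 1 sarcomere gene that passed. Among the cadherin and fusion genes Cdh2 was higher and Cdh5, an endothelial marker, lower. Of the 14 tested deacetylases and Mef2 cofactors 4 were higher, Hdac5, Ep300, Crebbp and Ncoa2, and 1 was lower, Hdac7. Hes1 and Notch2 were higher and Dll4 lower among the 9 tested Hes, Hey and Notch genes, with Hes1 at 16.2 and 14.7 FPKM in Myod1_control and at 6.76 and 3.20 in SunTag (limma adjusted p = 0.0316). Among the 6 tested junction genes, the receptor subunits Chrna2 and Chrna4 were higher in Myod1_control, at 3.17 and 3.23 FPKM against 0.170 and 0.390 for Chrna2 and at 8.25 and 22.4 against 2.19 and 3.61 for Chrna4, with limma adjusted p-values of 0.0140 for Chrna2 and 0.0461 for Chrna4. Unc45b, Igfbp5, Mapk12, Des and Dll4 were below 1 FPKM in both Myod1_control libraries and Chrna2 in both SunTag libraries, so these 6 were tested through their levels in other groups, and their counts support nothing about the lists. Apart from Hdac5, Hes1, Chrna4 and Id3, the genes of these lists are named because they passed. Each of these calls was lost in 5 to 9 of the 15 alternatives, with no change of direction. These comparisons share the Myod1_control and SunTag libraries with those above.

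**Figure D4:**
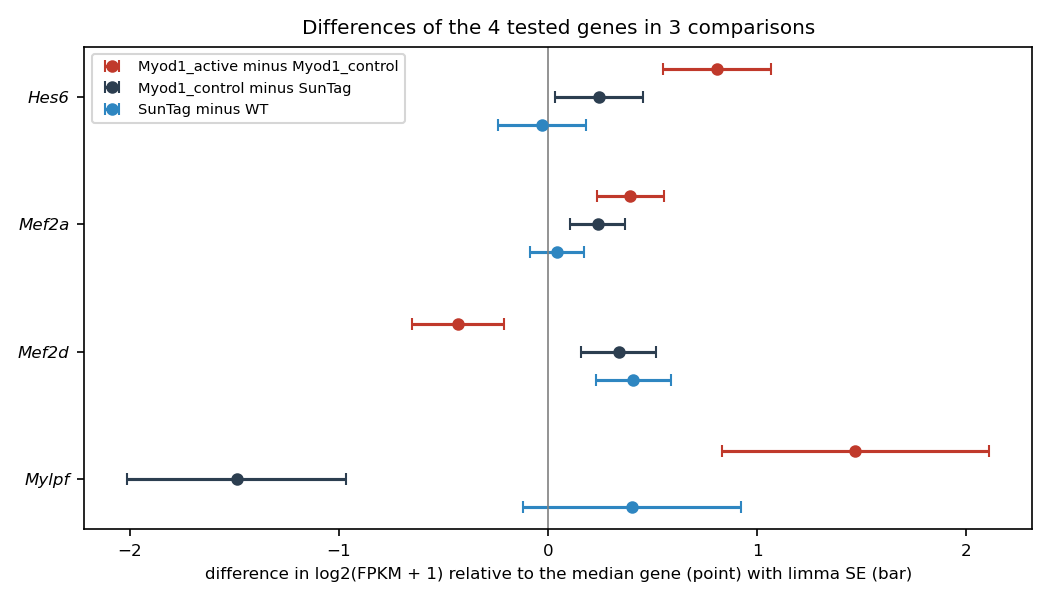
Difference in log2(FPKM + 1) relative to the median gene (horizontal axis) for the 4 tested genes in 3 comparisons, with limma's SE as bars. Hes6, Mef2a and Mylpf lie above 0 in Myod1_active minus Myod1_control (red) at 0.81, 0.39 and 1.47, Mef2d lies at -0.43, and Mylpf lies at -1.49 in Myod1_control minus SunTag.

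In the search for genes of similar course over the 7 libraries, candidates had to vary enough between their lowest and highest values. That limit kept 10548 candidates for Hes6 and 1571 for Mylpf. For Mef2a and Mef2d, whose own log2 ranges were 0.84 and 0.91, it excluded none of the 11090 candidates. The most similar genes had the smallest root mean square difference between centred log2(FPKM + 1) profiles. For Hes6 these were Rab14, a vesicle transport GTPase, at 0.09, Ppp1r7, a regulator of protein phosphatase 1, at 0.09 and Trim56, a ubiquitin ligase, at 0.10, where the median candidate differed by 0.46. Rab14 was at 115 FPKM in Myod1_active and at 44.4 to 60.9 in the other 6 libraries. For Mef2a they were Rhobtb3 at 0.05, Mrps18b, a mitochondrial ribosomal protein, at 0.05 and Cnot2, a subunit of the deadenylase complex, at 0.06. For Mef2d they were Idh1, a cytosolic isocitrate dehydrogenase, at 0.09, Psmd14, a proteasome subunit, at 0.09 and Col12a1, a collagen, at 0.10. For Mylpf they were S100a11, a calcium-binding protein, at 0.24, Ly6d at 0.25 and Cotl1, an actin-binding protein, at 0.28, none of which is a sarcomere gene. S100a11 was at 18.5 FPKM in Myod1_active, 2.98 and 6.12 in Myod1_control, 22.4 and 10.3 in SunTag and 13.8 and 12.7 in WT. It shared its 2 lowest libraries with Mylpf, which follows from picking it by likeness over these same libraries.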

How the data were processed

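Liver RNA of 7 libraries was extracted with a Direct-zol kit, and the libraries followed Illumina protocols, per the labels. The authors used cutadapt 1.11, TopHat2 2.1.1 and Cufflinks 2.2.1 with mm9, per the submitters' processing notes. Not given in the sources used here are annotation, settings and strand. The files hold, per their headers, FPKM as deposited by the authors, with lower and upper bounds, in 37468 rows per library. Depth in reads was unknown. Of all rows, 8.07% to 9.36% lay outside their own bounds, which are quoted but served as no error. Starts were shifted by 1, since 3276 of 3379 small RNA spans matched their annotated length only when counted from 0.

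After 343 rows not marked OK were dropped and 244 repeated symbols summed, genes with an FPKM of 1 or more anywhere were fitted on log2(FPKM + 1) by limma 3.58.1 (R 4.3.3), using a mean for each group, a variance trend, two-sided tests and Benjamini-Hochberg adjustment. On this scale changes in low genes come out too small. The single Myod1_active library was assumed to vary like the other groups. Nothing states that replicates are separate animals, so the p-values may reflect technical spread alone. Any 2 libraries shared at most 1 identical value above 0. The code was tested on simulated data. The genes and lists were chosen with earlier results of these data known. From each list the 2 genes with the highest mean FPKM are named, of up to 4 that the rule allows, a number settled after values were seen, and others where they passed. Rows within 5 kb of a gene were looked at after its values were seen. Of these only Per2, Sept1 and the overlapping 1700113A16Rik are described. Others, among them Zbtb4 and Fgf11 beside Chrnb1 and Tbc1d10b near Mylpf, are not. Alternatives covered the pseudocount, filters, scaling, a replicate block, the groups fitted and each library left out.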

Additional observations from a re-analysis of the deposited data

How the results depend on the processing

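None of the 4 tested genes passed in Myod1_active minus Myod1_control under any of the 14 alternatives. Adjusted p-values from limma ranged from 0.113 to 0.352 for Hes6, 0.143 to 0.483 for Mef2a, 0.441 to 0.994 for Mef2d and 0.167 to 0.445 for Mylpf, and no direction changed. The count of all genes called, 40, became 23 with a pseudocount of 0.1, 253 with no filter on low values, 20 without genes spanning less than 300 bp, and 0 with the 2 groups fitted alone, where 2611 genes had an unadjusted p under 0.05. It ranged from 48 to 122 with 1 library left out, reaching 122 without Myod1_control replicate 1 and 94 without replicate 2. With a replicate block it was 23. The numbers were not treated as pairs, since deviations of same-numbered libraries correlated at 0.000757 to 0.0425, and the block changed no call among the 4 genes. Myod1 missed the threshold under 4 of 13 alternatives, with adjusted p-values of 0.173 (pseudocount of 0.1), 0.0518 (quantile normalization), 0.222 (replicate block) and 0.0847 (the 2 groups alone), and Cryab under 6 of 14, among them the replicate block at 0.129 and the 2 groups alone at 0.224.

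In SunTag minus WT the count of 20 became 5 without short genes and ranged from 20 to 78 with 1 library left out (75 without SunTag replicate 1, 76 without replicate 2, 61 without WT replicate 1, 78 without replicate 2). Small differences there changed sign: Hes6 to 0.19 without SunTag replicate 1 and 0.11 without WT replicate 1, Mef2a to -0.0174 without WT replicate 1, and Mylpf to -0.0155 without SunTag replicate 1 and -0.0130 without WT replicate 2. With 1 library left out they ranged from -0.23 to 0.19 for Hes6, -0.0174 to 0.0963 for Mef2a and -0.0155 to 0.84 for Mylpf. In Myod1_control minus SunTag the count of 3832 became 48 with the 2 groups fitted alone and ranged from 48 to 4036 with 1 library left out (135 without Myod1_control replicate 1, 127 without replicate 2, 939 without SunTag replicate 1, 48 without either WT library). There 1 of the 4 genes, Mylpf, passed without short genes. The causes were not tested. Fewer libraries leave fewer residual degrees of freedom, and the Myod1_active library could not be left out of its own comparison. With read totals unknown, small changes in genes near 0 FPKM could not be assessed.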
